A study of Mus musculus with 6 samples.

Results

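The 8 genes described here, Slc2a2, Gckr, Gpi1, Pfkl, Pfkfb1, Pklr, Khk and Tkfc, carry sugar into the hepatocyte and start its breakdown through glycolysis or through the fructose pathway. They were chosen by name as the glycolysis and fructose use genes among 34745 genes counted, and all 8 were among the 14417 genes that passed the filter on low counts and were tested. Primary hepatocytes of male FOXA2 flox/flox mice aged 12 weeks were compared between 3 FOXA2f/f+CCl4 and 3 FOXA2H-KO+CCl4 libraries, each from a separate mouse. All 6 mice carried the floxed Foxa2 alleles and received CCl4, a hepatotoxin that causes fibrosis, at 0.25 ml/kg 2 times a week for 4 weeks. FOXA2f/f mice received AAV8-TBG-Control and FOXA2H-KO mice AAV8-TBG-Cre through the tail vein, 2 weeks before CCl4. Because the TBG promoter is active in hepatocytes, other liver cells keep their Foxa2. The comparison therefore asks how these genes differ when hepatocytes of fibrotic livers lack FOXA2, and hepatocytes of mice without CCl4 were not analysed here.

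Hepatocytes take up glucose and fructose from portal blood through GLUT2, the product of Slc2a2. Glucose is phosphorylated and then passes through glucose-6-phosphate isomerase (Gpi1), the liver phosphofructokinase (Pfkl) and finally the liver pyruvate kinase (Pklr). Fructose is phosphorylated by ketohexokinase (Khk) and enters glycolysis below the phosphofructokinase step, in part after a triokinase (Tkfc) has phosphorylated glyceraldehyde. Pklr, Khk and other genes of sugar use are known targets of the transcription factor ChREBP, the product of Mlxipl, which responds to carbohydrate. FOXA2 is a forkhead transcription factor of hepatocytes that is known to regulate genes of lipid, bile acid and glucose metabolism.

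Promoter sequences of RefSeq on GRCm38.p6, from 250 bases before to 50 bases after a start, were matched to all 8 genes by symbol and gave 12 windows. Sequences before the start are shown for the 4 genes that ranked the libraries in one order, Pklr, Khk, Tkfc and Gpi1, and for Slc2a2, which holds a match of another kind. They are written 5′ to 3′ on the strand of the gene, cut to bases that lie in no annotated exon, except for Khk, where 26 bases around a match are shown. Capitals mark matches to the searched letters.
Pklr, before the downstream start, chr3:89136373-89136571, plus strand: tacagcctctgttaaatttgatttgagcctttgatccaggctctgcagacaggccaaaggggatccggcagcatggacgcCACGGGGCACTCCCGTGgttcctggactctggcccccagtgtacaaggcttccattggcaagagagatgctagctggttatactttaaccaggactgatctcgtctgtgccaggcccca
Khk, chr5:30921478-30921503, plus strand: cgttccccgtCACGTGacaccgttaa
Tkfc, chr19:10604274-10604508, minus strand: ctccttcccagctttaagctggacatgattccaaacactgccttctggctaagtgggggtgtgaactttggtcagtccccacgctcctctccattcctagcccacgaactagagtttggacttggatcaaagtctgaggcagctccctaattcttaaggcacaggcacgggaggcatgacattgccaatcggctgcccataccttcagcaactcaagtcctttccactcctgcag
Gpi1, chr7:34230337-34230419, minus strand: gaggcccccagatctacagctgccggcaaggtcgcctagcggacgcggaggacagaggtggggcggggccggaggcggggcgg
Slc2a2, chr3:28697653-28697902, plus strand: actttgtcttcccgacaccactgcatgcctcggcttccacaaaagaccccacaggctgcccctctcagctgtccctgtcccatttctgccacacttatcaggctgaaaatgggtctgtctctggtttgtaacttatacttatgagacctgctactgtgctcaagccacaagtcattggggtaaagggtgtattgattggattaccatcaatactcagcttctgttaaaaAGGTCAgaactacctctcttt

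In the Pklr stretch the capitals mark CACGGG and CCCGTG with 5 bases between them, the arrangement of a carbohydrate response element, which is the kind of site that ChREBP and its partner MLX bind. It began 170 bases before the downstream of the 2 RefSeq starts, the one used for the liver form of the enzyme, and of 32851 windows in the table this was the 1 that held it (0.003%). These exact letters were set after the Pklr window had been read, so that window matches by construction. Other spellings of such an element were not searched, so the share does not tell how common these elements are. The E-box CACGTG, which reads the same on both strands, stood 71 bases before the RefSeq start of Khk and in 7.15% of all windows. GENCODE M21 starts Khk further upstream, at chr5:30921431, so the bases shown lie within the gene as annotated there. The hexamer TGACCT, a recognition sequence of nuclear receptors, was found on either strand in 3 of the 12 windows, against 16.3% of all windows. These were windows of Slc2a2, Pfkfb1 and Pklr, for Pklr that of the upstream start. In Slc2a2 the hexamer lies on the opposite strand and is read as AGGTCA. For forkhead factors, TGTTTAC (in 3.65% of all windows), the variant TGTTTGC (in 5.07%) and the variant TATTTAC (in 3.04%) were searched on both strands. At least 1 of them was in 11.2% of all windows and in 0 of the 12 windows of these genes. These are matches of letters within 300 bases and say nothing of where a factor binds.

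Foxa2, the targeted gene, was first examined as a check of the labels. Its level was 19.0, 13.5 and 16.4 CPM in FOXA2f/f replicates 1, 2 and 4, and 1.03, 0.762 and 1.62 CPM in FOXA2H-KO replicates 1, 2 and 4. CPM is the number of counts on a gene divided by the TMM-scaled library total and brought to a common total in all libraries, and the same order of replicates is kept below. Every knockout library lay far under every FOXA2f/f library. By edgeR's quasi-likelihood test over all genes, Foxa2 had a log2 fold change (FOXA2H-KO minus FOXA2f/f) of -3.85 ± 0.31 (SE) and an adjusted p of 0.031. It was the 1 gene of 14417 (0.00694%) called at an adjusted p under 0.05 and a fold change of at least 2, and 745 genes had an unadjusted p under 0.05.

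Total counts lay between 20983455 and 28327765. FOXA2f/f replicate 2 had the fewest, and it also stood apart in its markers of cell types. The summed level of 10 hepatocyte markers was highest in it, at 155933 CPM against 111976 and 141629 CPM in the other FOXA2f/f libraries and 105830 to 137612 CPM in the FOXA2H-KO libraries. Most of this sum came from 1 marker in every library, and 7 of the 10 markers were highest in FOXA2f/f replicate 2. Of 11 macrophage markers, all 11 were lowest in it, with a sum of 628 CPM against 1331 to 2899 CPM in the other 5 libraries, and of 11 endothelial markers 10 were lowest in it. The sum of 11 stellate cell and fibroblast markers was lowest in it too, at 1085 CPM against 1311 to 2782 CPM, and so was that of pericentral hepatocyte markers, at 1959 CPM against 2794 to 3807 CPM, with 7 of the 11 tested lowest there. Neutrophil markers summed to 6.42 to 96.2 CPM in FOXA2f/f and 7.08 to 15.0 CPM in FOXA2H-KO, and cholangiocyte markers to 188 to 382 CPM and 263 to 718 CPM. The groups overlapped in the sum of each of these lists, and no marker in them was at 0 in all libraries. All 6 tested neutrophil markers lay lower in FOXA2H-KO (median log2 fold change -2.64, and -3.18 without FOXA2f/f replicate 2). Of 6 tested cholangiocyte markers 5 lay higher and 1 lower (median 0.82, and 0.61 without that library). In both lists 0 markers were called by edgeR. The part of these cells in the results was not tested. Hepatocyte preparations by low-speed centrifugation keep some of these cells, and in bulk RNA fewer cells of a type and less RNA per cell cannot be told apart. Where leaving it out clearly moved a fold change or a list median, the value without it is given too.

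All 8 genes had a fitted level below that of FOXA2f/f in FOXA2H-KO hepatocytes, and none passed the test. Their median log2 fold change was -0.58, against -0.01 over all genes tested, and it was -0.19 without FOXA2f/f replicate 2, against -0.01 over all genes. The call at an adjusted p under 0.05 was made for 0 of 8, and 0 of 8 had an unadjusted p under 0.05 in the lower direction, against 3.18% of all genes. Under DESeq2, which called 73 genes in all, 0 of 8 were called and 2, Gpi1 and Tkfc, had an unadjusted p under 0.05. The share of all genes under DESeq2 is not given here, so this count is not read as a result about the members. The groups did not overlap for 1 of 8 genes, Gckr, which was lower in FOXA2H-KO, against 5.96% of all genes lower and 4.54% higher without overlap. The count depended on single libraries. It was 5 without FOXA2H-KO replicate 2 (9.99% of all genes lower without overlap in the same libraries), 3 without FOXA2H-KO replicate 4 (8.66%) and 2 without FOXA2f/f replicate 1 (9.12%). It stayed at 1 without FOXA2f/f replicate 2 (10.2%), FOXA2f/f replicate 4 (18.4%) or FOXA2H-KO replicate 1 (10.1%).

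**Figure D1:**
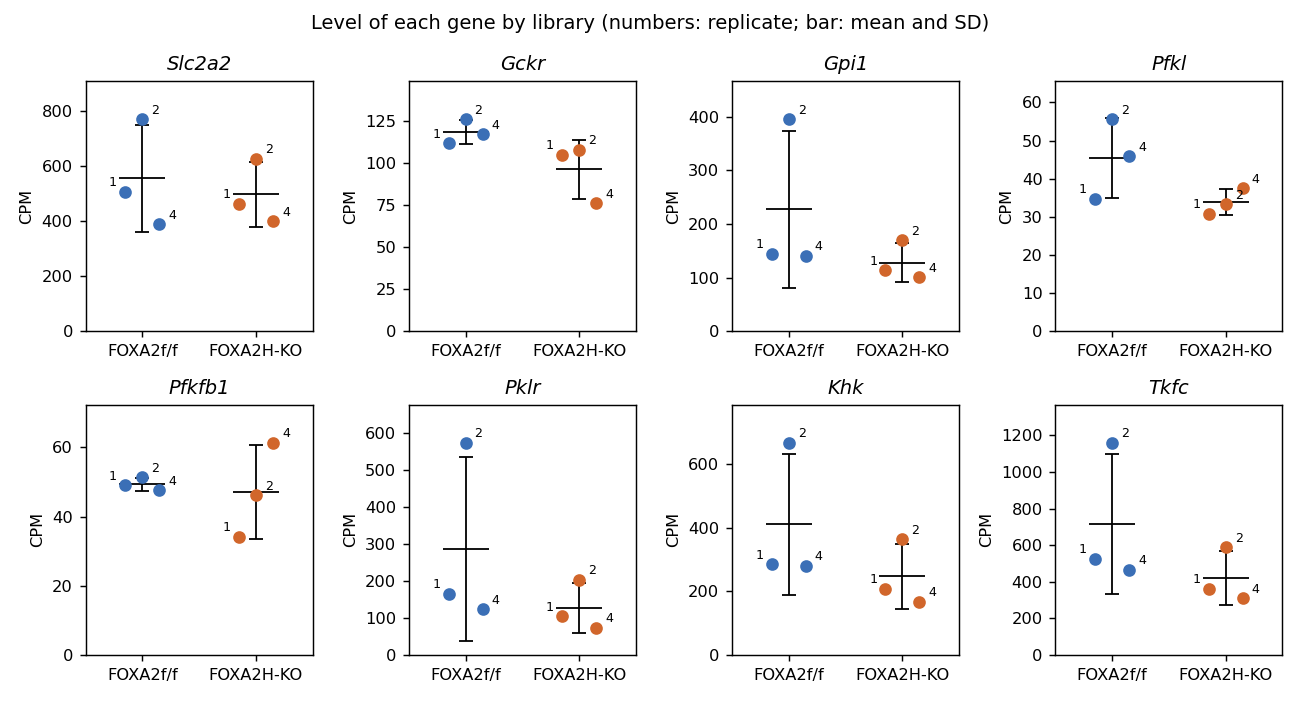
Level of each of the 8 genes in CPM (vertical axes, from 0) in 3 FOXA2f/f and 3 FOXA2H-KO libraries. Points are libraries with their replicate number, and black bars give the mean and SD. FOXA2f/f replicate 2 is the highest of all 6 libraries in 7 of the 8 genes, and Gckr is the 1 gene whose groups do not overlap.

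Slc2a2 encodes the main sugar transporter of the hepatocyte membrane. It was at 507, 771 and 390 CPM in FOXA2f/f and at 465, 628 and 401 CPM in FOXA2H-KO. The ranges of the groups lay largely over each other, with replicate 2 the highest of each group. The means were 556 ± 195 and 498 ± 117 CPM (SD, n = 3), the log2 fold change was -0.16 ± 0.29 (SE) and edgeR's adjusted p was 0.991. Without FOXA2f/f replicate 2 the direction turned and the value was 0.15. Among the 11 tested sugar transporter genes, Slc2a2 made up between 84.0% and 89.0% of the summed FPKM, a measure per gene length, in every library.

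Gckr encodes the regulatory protein that binds the hepatic glucose-phosphorylating enzyme in the nucleus and releases it when sugar is plentiful. It was at 111, 126 and 117 CPM in FOXA2f/f and at 105, 108 and 76.1 CPM in FOXA2H-KO. All 3 knockout libraries were below all 3 FOXA2f/f libraries, but the highest knockout and the lowest FOXA2f/f library lay close together. The means were 118 ± 7.26 and 96.2 ± 17.4 CPM (SD, n = 3) and the log2 fold change was -0.30 ± 0.16 (SE), with an adjusted p of 0.957. The difference was -0.25 without FOXA2f/f replicate 2 and -0.14 without FOXA2H-KO replicate 4, and the groups overlapped when libraries were scaled by their size alone. The difference of Gckr thus moved little without FOXA2f/f replicate 2 and more without that knockout library.

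Pfkl and Pfkfb1 act at the committed step of glycolysis. Pfkl encodes the liver subunit of phosphofructokinase, and Pfkfb1 the bifunctional enzyme that makes and removes its activator fructose-2,6-bisphosphate. Pfkl was at 34.8, 55.6 and 46.0 CPM in FOXA2f/f and at 30.8, 33.3 and 37.5 CPM in FOXA2H-KO. Only FOXA2f/f replicate 1 fell within the knockout range. The log2 fold change of Pfkl was -0.42 ± 0.19 (SE), with an unadjusted p of 0.0533 and an adjusted p of 0.941 by edgeR, and -0.25 without FOXA2f/f replicate 2. Pfkfb1 was at 49.1, 51.4 and 47.7 CPM in FOXA2f/f and at 34.2, 46.1 and 61.3 CPM in FOXA2H-KO. The knockout libraries of Pfkfb1 lay on both sides of the narrow FOXA2f/f range, with an SD of 13.6 CPM against 1.87 CPM. Its means of 49.4 and 47.2 CPM gave a log2 fold change of -0.07 ± 0.21 (SE, adjusted p 0.993), which was -0.03 without FOXA2f/f replicate 2 and turned to 0.12 without FOXA2H-KO replicate 1.

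Among the 3 phosphofructokinase genes, Pfkl held between 56.1% and 64.9% of the summed FPKM, and Pfkfb1 held between 66.1% and 78.1% of that of the 4 Pfkfb genes. Both are therefore the leading transcripts of their step in every library, as is usual for liver. The share of Pfkfb1 was lowest in FOXA2H-KO replicate 1 and highest in FOXA2f/f replicate 2.

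Gpi1 encodes the isomerase that links glucose-6-phosphate to fructose-6-phosphate. It was at 145, 395 and 141 CPM in FOXA2f/f and at 113, 169 and 101 CPM in FOXA2H-KO. FOXA2f/f replicate 2 was 2.77-fold over the mean of the other FOXA2f/f libraries, and the remaining 5 libraries lay close to each other. The means were 227 ± 146 and 128 ± 36.4 CPM (SD, n = 3), and the log2 fold change of -0.83 ± 0.42 (SE, adjusted p 0.947) was -0.16 without that library.

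Pklr, the last enzyme of the pathway in hepatocytes, varied most. It was at 166, 574 and 124 CPM in FOXA2f/f and at 105, 203 and 74.1 CPM in FOXA2H-KO, a 7.75-fold range over the 6 libraries. Replicate 2 was the high library in each group, 3.97-fold over the mean of the other FOXA2f/f libraries and 2.27-fold over the mean of the other FOXA2H-KO libraries. The means were 288 ± 249 and 128 ± 67.4 CPM (SD, n = 3), so that the difference between them was smaller than the SD of the FOXA2f/f group. The log2 fold change was -1.17 ± 0.62 (SE, adjusted p 0.951) and -0.18 ± 0.39 without FOXA2f/f replicate 2. Related to the 10 hepatocyte markers instead of the library, Pklr had 1.17, 3.68 and 1.10 counts per 1000 marker counts in FOXA2f/f and 0.995, 1.57 and 0.538 in FOXA2H-KO. FOXA2f/f replicate 2 remained the highest on this scale, which rests mostly on 1 marker.

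The Pklr gene also makes the pyruvate kinase of red cells, from its upstream start, and gene counts do not separate the forms. The summed level of the 5 tested of 6 erythroid markers was 46.5, 86.0 and 53.5 CPM in FOXA2f/f and 31.0, 38.3 and 29.5 CPM in FOXA2H-KO. The sum was thus also highest in FOXA2f/f replicate 2 and did not overlap between the groups. Most of it was Alas2, an enzyme of haem synthesis in red cell precursors, at 82.0 CPM in that library. Of the 5 tested markers, 2 lay lower in FOXA2H-KO and 3 higher. Their median log2 fold change was 0.0003, and -0.30 without FOXA2f/f replicate 2. In that library 1 of them was the highest of all libraries and 2 were the lowest. The globin gene Hba-a1 was at 4.17, 1.32 and 2.70 CPM in FOXA2f/f and at 1.54, 5.65 and 0.786 CPM in FOXA2H-KO, with FOXA2f/f replicate 2 the lowest of its group. No tested marker of this list was at 0 in any library, and the part of such cells in the level of Pklr was not tested.

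The fructose enzymes behaved much alike. Khk, which commits fructose to metabolism by phosphorylating it, was at 284, 666 and 280 CPM in FOXA2f/f and at 208, 364 and 168 CPM in FOXA2H-KO. FOXA2H-KO replicate 2 lay above FOXA2f/f replicates 1 and 4, so that the groups overlapped. The means were 410 ± 222 and 247 ± 104 CPM (SD, n = 3), with a log2 fold change of -0.73 ± 0.42 (SE, adjusted p 0.96) that was -0.19 without FOXA2f/f replicate 2. Tkfc, the triokinase that returns glyceraldehyde from fructose to glycolysis, was at 525, 1159 and 466 CPM in FOXA2f/f and at 362, 590 and 311 CPM in FOXA2H-KO. It showed the same overlap through FOXA2H-KO replicate 2. Its means were 717 ± 384 and 421 ± 149 CPM (SD, n = 3), with a log2 fold change of -0.77 ± 0.40 (SE, adjusted p 0.951) that was -0.23 without FOXA2f/f replicate 2.

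**Figure D2:**
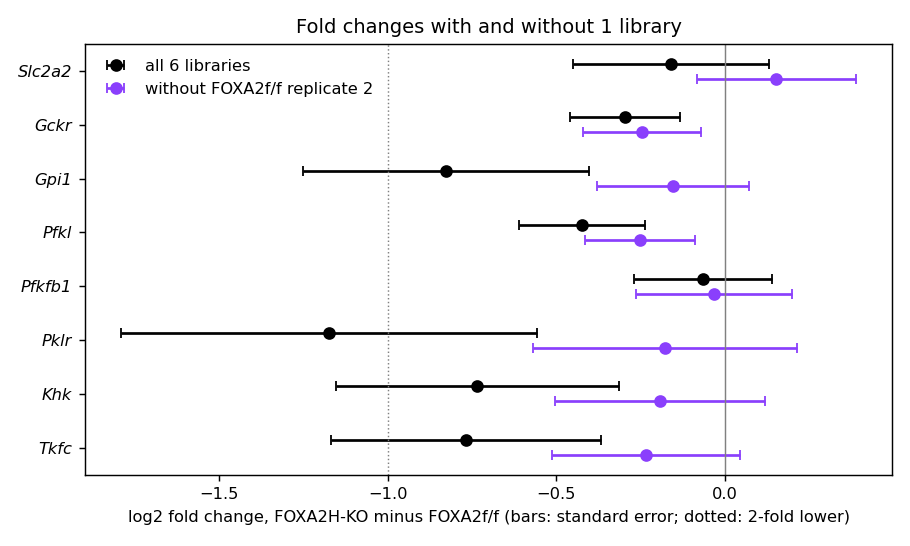
Log2 fold change, FOXA2H-KO minus FOXA2f/f, of the 8 genes with its standard error, fitted on all 6 libraries (black) and without FOXA2f/f replicate 2 (violet). The dotted line marks a level 2-fold lower. With all libraries the values run from -1.17 (Pklr) to -0.07 (Pfkfb1), and without the 1 library from -0.25 (Pfkl and Gckr) to 0.15 (Slc2a2).

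Pklr, Khk, Tkfc and Gpi1 ranked the 6 libraries in exactly the same order. FOXA2f/f replicate 2 was highest, followed by FOXA2H-KO replicate 2, FOXA2f/f replicates 1 and 4 and FOXA2H-KO replicates 1 and 4. The order was taken from Pklr, which matches it by construction, and was found in 29 of 14417 genes, or 0.201%, these 4 included. Shares for other orders were not counted, so this share does not tell how rare a common order is. Across the 6 libraries, which the genes share, the log2 CPM values of these 4 genes had Pearson correlations between 0.978 (Gpi1 and Khk) and 0.995 (Pklr and Tkfc). Over the 5 libraries without FOXA2f/f replicate 2 the correlations ranged from 0.965 (Pklr and Khk) to 0.998 (Gpi1 and Khk). As these genes are described together for their common order of libraries, the correlations only restate it in another measure. Pfkfb1 did not follow it, with correlations between -0.40 and 0.46 to the other 7 genes.

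Count ratios within a library do not depend on scaling. As the 4 genes are described together for their common order, close ratios among them in part restate it. The ratio of Tkfc to Khk counts stayed between 1.62 and 1.85 in all 6 libraries, a 1.14-fold range. The ratio of Tkfc to Gpi1 counts ranged from 2.93 to 3.63 and that of Khk to Gpi1 from 1.66 to 2.15. The ratio of Tkfc to Pklr counts was wider, as Pklr had the larger swing. It ran from 2.02 in FOXA2f/f replicate 2 to 4.19 in FOXA2H-KO replicate 4. Ratios of Slc2a2, which is not among the 4, had ranges from 1.94-fold (to Tkfc) to 4.03-fold (to Pklr). FOXA2f/f replicate 2 was the highest library in 7 of the 8 genes and in 29.7% of all genes tested, and Pfkfb1, the exception, was highest in FOXA2H-KO replicate 4.

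**Figure D3:**
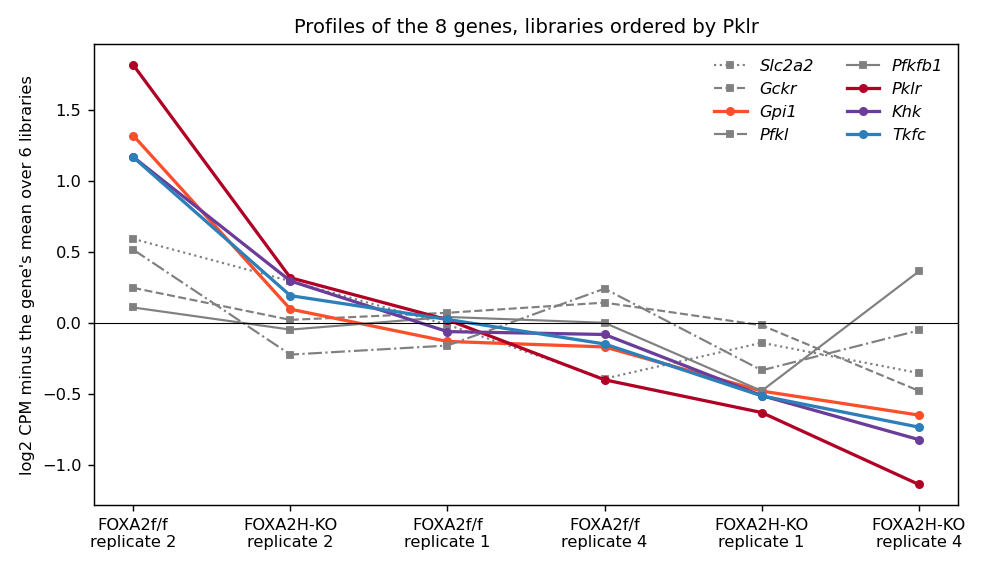
Log2 CPM of the 8 genes minus each gene's mean over the 6 libraries (vertical axis), with the libraries in order of Pklr level (horizontal axis). The coloured lines of Pklr, Gpi1, Khk and Tkfc fall from left to right together, with FOXA2H-KO replicate 2 above FOXA2f/f replicates 1 and 4. The grey lines of Slc2a2, Gckr, Pfkl and Pfkfb1 do not follow this order.

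Levels can be compared between genes only per length, for which the deposited FPKM values were used. Tkfc was the most abundant, with a mean of 245 FPKM over the 6 libraries, followed by Khk at 94.2, Slc2a2 at 73.0, Pklr at 41.6, Gpi1 at 18.8, Gckr at 15.3, Pfkfb1 at 9.41 and Pfkl at 8.09 FPKM. Tkfc was the highest of the 8 in every library. Neighbours further down changed places between libraries. Pklr, for example, was at 105 FPKM in FOXA2f/f replicate 2, above Slc2a2 at 94.1 FPKM there, and at 15.5 FPKM in FOXA2H-KO replicate 4, below Slc2a2 at 55.8 FPKM.

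The gene positions, from GENCODE M21 on GRCm38, are chr3:28697903-28731359 for Slc2a2, chr5:31297443-31327314 for Gckr, chr7:34201330-34230336 for Gpi1, chr10:77986947-78010083 for Pfkl, chrX:150588229-150643878 for Pfkfb1, chr3:89136142-89146784 for Pklr, chr5:30921431-30931248 for Khk and chr19:10587791-10605654 for Tkfc. All 8 are annotated as protein-coding. Part of the exonic bases of Pklr (22.0%) is shared with Hcn3, part of those of Tkfc (20.0%) with Cyb561a3 and Ddb1, part of those of Gpi1 (11.5%) with Gm26762 and part of those of Pfkfb1 (3.06%) with Apex2. The strand setting of the counting is not given in the sources used here, so reads in the shared bases could belong to either gene. Over all libraries the genes that overlap Tkfc had 44551 counts and Hcn3 had 1346.

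Pyruvate kinase exists in liver as the hepatocyte form (Pklr) and as the form of most other tissues and of proliferating cells (Pkm). Pkm made up 41.8%, 14.3% and 65.4% of the summed Pkm and Pklr FPKM in FOXA2f/f and 68.5%, 44.4% and 71.3% in FOXA2H-KO. The groups overlapped, and the lowest share was again in FOXA2f/f replicate 2. The means were 40.5% ± 25.6 and 61.4% ± 14.8 (SD, n = 3), a difference of 20.9 percentage points with p = 0.2 by an exact two-sided permutation test, whose smallest p with 3 against 3 is 0.1. With 1 library left out the difference ranged from 7.82 percentage points (without FOXA2f/f replicate 2) to 33.4 (without FOXA2f/f replicate 4). Pkm itself was at 65.0, 52.4 and 128 CPM in FOXA2f/f and at 125, 89.1 and 101 CPM in FOXA2H-KO. It was lowest in FOXA2f/f replicate 2, as were the macrophage and endothelial marker sums, and the part of such cells in the share was not tested.

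**Figure D4:**
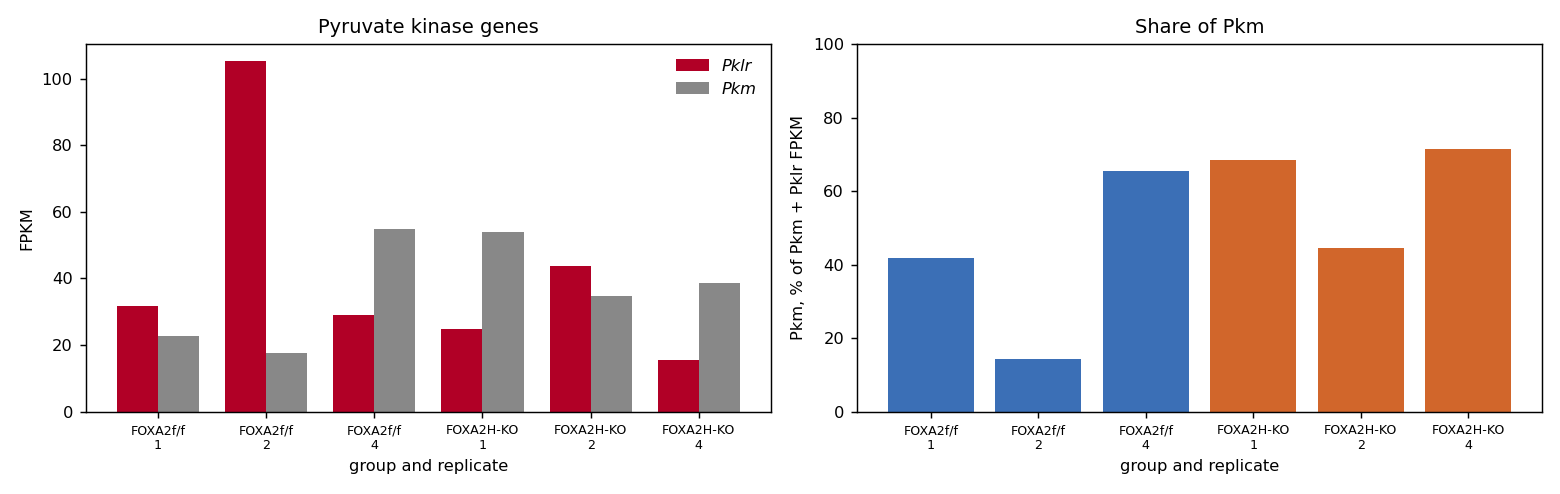
Left, deposited FPKM of Pklr and Pkm in each library. Right, Pkm as a percentage of the summed Pkm and Pklr FPKM, with FOXA2f/f libraries in blue and FOXA2H-KO libraries in orange. The share runs from 14.3% in FOXA2f/f replicate 2 to 71.3% in FOXA2H-KO replicate 4, and the groups overlap.

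The remaining genes of sugar use were examined in lists that include the 8 genes where they belong. In none of the lists was a gene called by edgeR at an adjusted p under 0.05 and a fold change of at least 2. Of 15 sugar transporters, 11 were tested, 8 lay below 0 and 3 above, with a median log2 fold change of -0.30, and of -0.21 without FOXA2f/f replicate 2. After Slc2a2 the most abundant was Slc2a9, a urate and sugar transporter, at 49.9, 49.9 and 39.1 CPM in FOXA2f/f and 40.9, 44.8 and 35.0 CPM in FOXA2H-KO (log2 fold change -0.20, adjusted p 0.983). Its groups overlapped.

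Of 25 glycolysis enzymes, 16 lay below 0 and 9 above, with a median of -0.11 that was -0.05 without FOXA2f/f replicate 2. Ldha, which turns pyruvate into lactate, was among the most abundant, at 1143, 913 and 740 CPM in FOXA2f/f and 832, 749 and 1014 CPM in FOXA2H-KO, with full overlap (log2 fold change -0.11, adjusted p 0.991). For 2 of the 25, Pfkm and Aldoc, the groups did not overlap. Pfkm, the muscle phosphofructokinase subunit, was at 14.4, 19.3 and 15.2 CPM against 12.3, 13.7 and 10.5 CPM, with a log2 fold change of -0.42 (-0.28 without that library) and an adjusted p of 0.941. Aldoc, an aldolase known from brain, was at 9.88, 16.0 and 10.6 CPM against 5.55, 7.30 and 6.57 CPM, with a log2 fold change of -0.91 (-0.66 without it) and an adjusted p of 0.65. These were also the 2 genes of the list with an unadjusted p under 0.05 by edgeR, against 3.18% of all genes in the lower direction.

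Pfkm and Aldoc belong to 14 isozymes characteristic of other tissues. Of these 14, 4 lay below 0 and 10 above, with a median of 0.25, which was -0.03 without FOXA2f/f replicate 2. Pkm and Aldoa, a ubiquitous aldolase, were the most abundant of them. Aldoa was at 67.0, 61.2 and 81.3 CPM in FOXA2f/f and 78.0, 67.3 and 69.0 CPM in FOXA2H-KO (log2 fold change 0.03, adjusted p 0.993, and -0.05 without FOXA2f/f replicate 2). Of the 14 isozymes, 10 were lowest in FOXA2f/f replicate 2, the library in which 7 of the 8 liver genes were highest.

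The 6 regulators of glycolysis, which include Gckr and Pfkfb1 as their most abundant members, split into 4 below 0 and 2 above, with a median of -0.06 that was -0.04 without FOXA2f/f replicate 2. Of the 11 fructose and polyol enzymes, 8 lay below 0 and 3 above, with a median of -0.25 that was -0.19 without it. Sord, which converts sorbitol into fructose, was at 1042, 1304 and 910.3 CPM in FOXA2f/f and 1021, 1141 and 1023 CPM in FOXA2H-KO (log2 fold change -0.03, adjusted p 0.997, and 0.12 without that library). Its knockout libraries all lay within the FOXA2f/f range, unlike those of Khk and Tkfc. Xylb, a xylulokinase, was at 124, 144 and 115 CPM against 99.4, 111 and 103 CPM. It was the 1 gene of this list without overlap, with a log2 fold change of -0.29 (-0.19 without FOXA2f/f replicate 2) and an adjusted p of 0.941.

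In the list of carbohydrate response factors and their targets the groups did not overlap for 4 of 10 genes. All 4 were lower in FOXA2H-KO, against 5.96% of all genes. The list was chosen with earlier results of these data known, so the count is not read as an excess. Pklr and Khk, known ChREBP targets kept in other lists, overlapped between the groups. Mlxipl, which encodes ChREBP, was at 125, 239 and 189 CPM in FOXA2f/f and at 122, 116 and 69.2 CPM in FOXA2H-KO. Its log2 fold change was -0.85 ± 0.29 (SE, adjusted p 0.836) and -0.61 without FOXA2f/f replicate 2. Its order of libraries was not that of Pklr, since FOXA2H-KO replicate 2 lay below every FOXA2f/f library. Srebf1, the source of the lipogenic factor SREBP-1c, was at 302, 591 and 242 CPM against 161, 208 and 104 CPM, with a log2 fold change of -1.26 ± 0.38 (SE, adjusted p 0.771) and of -0.79 without that library.

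Klf10, a sugar-induced zinc finger factor, was at 89.3, 39.0 and 42.7 CPM against 27.1, 20.9 and 27.7 CPM, with a log2 fold change of -1.17 ± 0.32 (SE, adjusted p 0.689). Unlike the other 3 it was highest in FOXA2f/f replicate 1, and its value without FOXA2f/f replicate 2 was -1.38. Arrdc4, an arrestin-like target of ChREBP and its relative MondoA, was at 11.0, 15.2 and 11.1 CPM against 9.12, 10.6 and 7.86 CPM, with a log2 fold change of -0.43 ± 0.20 (SE, adjusted p 0.941) and of -0.26 without FOXA2f/f replicate 2. Txnip, the most abundant gene of the list and a classical glucose-induced transcript, overlapped between the groups, at 251, 151 and 284 CPM against 196, 162 and 164 CPM (log2 fold change -0.40, adjusted p 0.967, and -0.62 without that library). The median of the 10 genes was -0.29, and -0.18 without FOXA2f/f replicate 2. By edgeR, 3 of them (Mlxipl, Srebf1 and Klf10) had an unadjusted p under 0.05 and were lower, against 3.18% of all genes. Such lower genes numbered 1 among the transporters, 1 in the pentose phosphate pathway and 2 in gluconeogenesis. Downstream of pyruvate there were 1 lower and 1 higher. The regulators and the fructose and polyol enzymes had 0. These counts are not read as results about the lists.

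**Figure D5:**
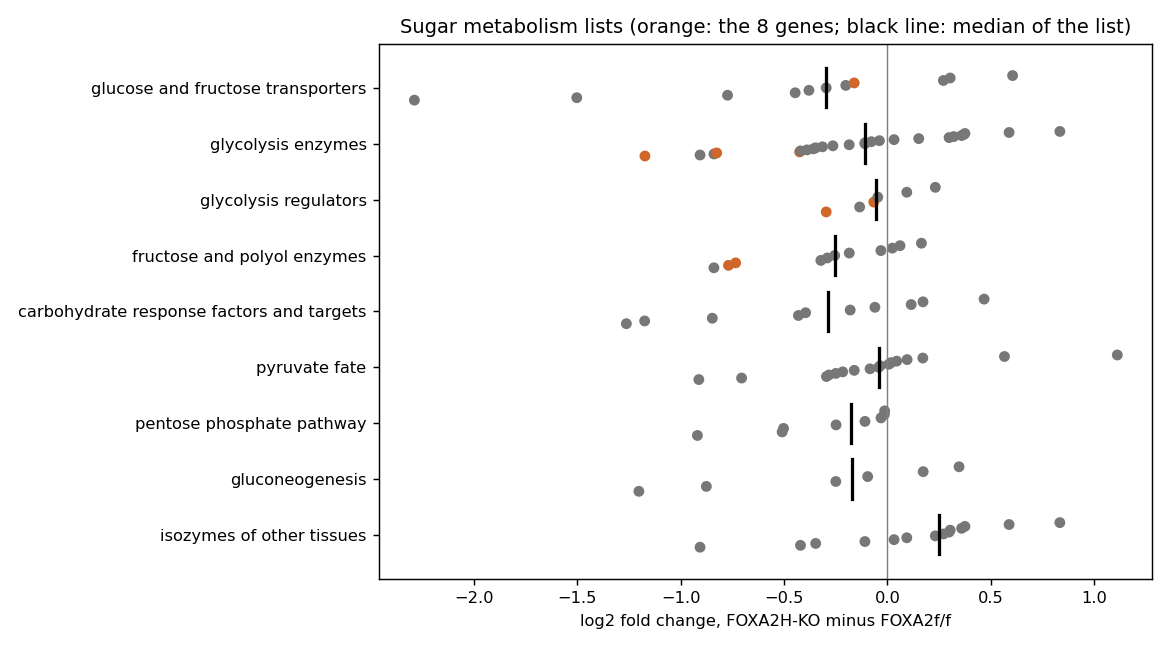
Log2 fold change, FOXA2H-KO minus FOXA2f/f (horizontal axis), of every tested gene of 9 lists of sugar metabolism. Each point is a gene, orange points are the 8 genes described here and black lines are list medians. The medians run from -0.30 (transporters) to 0.25 (isozymes of other tissues), and no point was called.

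Downstream of pyruvate, 10 of 17 genes lay below 0 and 7 above, with a median of -0.04 that turned to 0.04 without FOXA2f/f replicate 2. Pcx, the pyruvate carboxylase, was at 412, 423 and 358 CPM in FOXA2f/f and 287, 341 and 376 CPM in FOXA2H-KO (adjusted p 0.983). Pdhb, a subunit of pyruvate dehydrogenase, was at 91.5, 251 and 85.0 CPM against 73.7, 111 and 77.3 CPM, again with replicate 2 the highest of each group, and its log2 fold change of -0.71 (adjusted p 0.964) was -0.01 without FOXA2f/f replicate 2. Pdp2, a phosphatase that activates pyruvate dehydrogenase, was the 1 gene without overlap here and was higher in FOXA2H-KO. It was at 22.0, 20.6 and 26.8 CPM in FOXA2H-KO against 17.1, 9.76 and 19.8 CPM in FOXA2f/f. Its log2 fold change was 0.57 (adjusted p 0.941), and 0.33 without FOXA2f/f replicate 2. The opposing kinases in the list overlapped between the groups and went in both directions. Their log2 fold changes ran from -0.91 to 1.11, and from -0.52 to 0.75 without that library.

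All 8 genes of the pentose phosphate pathway lay below 0, with a median of -0.18 that was -0.07 without FOXA2f/f replicate 2. H6pd and Taldo1 were the most abundant. Taldo1, the transaldolase, was at 98.0, 117 and 99.4 CPM against 103, 104 and 105 CPM, with a log2 fold change of -0.01 (adjusted p 0.998) that turned to 0.07 without it. H6pd, the hexose-6-phosphate dehydrogenase of the endoplasmic reticulum, had a value of -0.25 (adjusted p 0.983), and of -0.10 without it, with overlapping groups. Rpia, a ribose-phosphate isomerase, did not overlap, at 8.46, 9.65 and 4.64 CPM against 4.52, 4.29 and 3.15 CPM (log2 fold change -0.92, adjusted p 0.836, and -0.71 without it).

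The 6 genes of gluconeogenesis, the opposite pathway, split into 4 below 0 and 2 above, with a median of -0.17 that was -0.02 without FOXA2f/f replicate 2. Fbp1, the fructose-1,6-bisphosphatase, was at 594, 896 and 488 CPM in FOXA2f/f and 292, 448 and 338 CPM in FOXA2H-KO. Its groups did not overlap, and its log2 fold change was -0.88 ± 0.27 (SE, adjusted p 0.791) and -0.59 without FOXA2f/f replicate 2. Pck1, the cytosolic phosphoenolpyruvate carboxykinase, was at 1514, 1356 and 2592 CPM against 1600.0, 2309 and 3038 CPM, with a log2 fold change of 0.35 ± 0.34 (SE, adjusted p 0.983) and of 0.18 without that library. It was lowest in FOXA2f/f replicate 2, unlike Pklr.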

How the data were processed

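The authors isolated hepatocytes by collagenase perfusion and low-speed centrifugation and made paired-end TruSeq libraries from poly-A RNA. Per the labels, reads were processed with CASAVA 1.8, TopHat2 2.1.0, HTSeq and edgeR on mm10. Annotation release and strand setting are not given in the sources used here. For each library the authors deposited whole-number read counts per gene, without normalization, and FPKM values, which follow from the counts, the library total and 1 length per gene. A table of the whole series held the same values and was not used.

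Counts were fitted in R 4.3.3 with edgeR 4.0.16 (filterByExpr, TMM, quasi-likelihood test) over all 6 libraries, with Benjamini-Hochberg adjustment over the 14417 genes tested. The biological coefficient of variation was 25.3%. Groups follow the labels, which number replicates 1, 2 and 4. No pair of replicates agreed within sampling noise (chi-square 27.6 to 94.0 times its degrees of freedom). FPKM served for levels across genes and for shares. Alternatives were DESeq2 1.42.0, limma 3.58.1 on log2(FPKM + 1) and log2(FPKM + 0.1), edgeR's exact test, other scalings and filters, a replicate block and leaving out libraries.

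The members and lists were chosen with earlier results of these data known. Genes named are the 8 members, Foxa2, the 2 most abundant and all non-overlapping genes of each list (mean of at least 1 CPM), and the 5 genes most alike to the members and to Pklr. A few genes it gives are not reported here.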

Additional observations from a re-analysis of the deposited data

How the results depend on the processing

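No member was called under any of 18 alternatives, and the lowest adjusted p of a member in them was 0.253. The members' median stayed between -0.75 and -0.19, and 137 of 144 fold changes of members under alternatives were below 0. The other 7 were Slc2a2 at 0.15 without FOXA2f/f replicate 2 and 0.016 scaled to hepatocyte markers, and Pfkfb1 at 0.039 with library size alone, 0.018 with log2(FPKM + 1), 0.018 with log2(FPKM + 0.1), 0.029 scaled to hepatocyte markers and 0.12 without FOXA2H-KO replicate 1. With 1 library left out, Slc2a2 ranged from -0.36 to 0.15 and Pfkfb1 from -0.29 to 0.12. Scaling to hepatocyte markers and leaving out both replicate 2 libraries were chosen after seeing the data. Library size alone moved the median of all genes from -0.01 to 0.10, and hepatocyte markers moved it to 0.11, above the turned values under these scalings.

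Of all genes, 73 were called by DESeq2, 64 by edgeR's exact test, 2 without a filter, and 0 with library size alone, limma on FPKM, hepatocyte scaling or without both replicate 2 libraries. The count was 0 to 6 with 1 library left out and 6 without FOXA2f/f replicate 2. Members with an unadjusted p under 0.05 numbered 1 with upper quartile scaling, 2 with DESeq2, 4 without a filter, 4 without both replicate 2 libraries, and 0 to 3 with 1 library left out. The 3 were Pklr, Khk and Tkfc without FOXA2H-KO replicate 2, and Pklr, Gpi1 and Tkfc without FOXA2f/f replicate 4, and Pfkl was the 1 without FOXA2f/f replicate 1. The shares of all genes in these fits are not given here, so these counts are not read as results about the members. Members without overlap numbered 0 with library size alone and 1 to 5 with 1 library left out. The causes were not tested.

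With a replicate block, 0 genes were called and 4 members (Pklr, Gpi1, Khk and Tkfc) had an unadjusted p under 0.05, the members' median being -0.54. These 4 rank the libraries in the same order, and the share of all genes in that fit is not given here. Same-numbered libraries did not deviate together (correlations -0.07, 0.03 and -0.23), and no library correlated best with its own number, so the numbers were not taken to pair the mice. At 20983455 to 28327765 counts per library every member had at least 810.0 counts in each. For most members counting error was thus small beside the spread between mice. Pfkfb1 in FOXA2f/f was an exception. With 937 to 1500 counts and an SD of 3.79% of its mean, its spread was not large beside counting error.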

Other observations

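The genes whose pattern over the 6 libraries was most like the mean of the 8 genes were Zfp775, Them7, Gpx1, Akr1c19 and Pygl, with Pearson correlations from 0.994 to 0.998 among 12882 genes at a mean of at least 1 CPM. The most like Pklr were Ces2e at 0.999, Akr1c19 at 0.995, Gpx1 and Pygl at 0.994 and Zfp775 at 0.993. In all, 117 of these genes exceeded 0.95 to the mean and 110 to Pklr, all over the same 6 libraries. Pygl, the liver glycogen phosphorylase, was at 421, 777 and 397 CPM in FOXA2f/f and at 346, 447 and 293 CPM in FOXA2H-KO (log2 fold change -0.55 ± 0.30 SE, edgeR adjusted p 0.952, and -0.18 without FOXA2f/f replicate 2). Gpx1, a glutathione peroxidase, was at 726, 984 and 711 CPM against 673, 776 and 639 CPM (log2 fold change -0.21 ± 0.20 SE, edgeR adjusted p 0.983, and -0.04 without that library).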
